A study of Mus musculus with 5 samples.

Results

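The TNF receptor family members of lymphocytes were examined as a set of 10 genes: Tnfrsf4, Tnfrsf9, Tnfrsf18, Tnfrsf25, Tnfrsf1a, Tnfrsf1b, Tnfrsf14, Ltbr, Fas and Cd27. They were chosen by name, through the NCBI gene identifier of each symbol, and make up 10 of the 27179 genes in the count table. Transcript counts were compared between group 3 innate lymphoid cells (ILC3, 3 libraries) and CD4 T cells (2 libraries). ILC3 are lymphocytes that lack a rearranged antigen receptor and respond to cytokines at mucosal surfaces. They were sorted as CD3-negative, CD127-positive CD45+ cells carrying a green fluorescent lineage reporter, and the CD4 T cells by CD45+CD3+CD4+. The CD4 T gate names no reporter, so whether both groups carried it cannot be told from the sort. Both groups are described as from wild type C57BL/6 mice, 3 in all, although the ILC3 gate uses a reporter. No treatment is named, and the labels give neither age nor tissue. They do not tie a library to a mouse either, so a p-value here reflects only how far the libraries of a group spread, and that spread may be technical. In bulk samples, fewer cells of a type and less RNA per cell cannot be told apart.

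Receptors of this family are trimerised by ligands of the TNF family. Those with a cytoplasmic death domain recruit adaptors such as FADD or TRADD and can drive caspase activation or NF-kB signalling, and the others bind TRAF adaptors directly. In T cells, OX40 (Tnfrsf4), CD137 (Tnfrsf9), GITR (Tnfrsf18) and CD27 (Cd27) act as costimulatory receptors beside the antigen receptor, and OX40 and GITR are known for high levels on regulatory T cells. ILC3 are known as a source of lymphotoxin, whose receptor (Ltbr) is found mainly on stromal and myeloid cells.

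The 10 genes fall in 3 places of the mouse genome (GRCm38.p6, the assembly that mm10 names). On chromosome 4 lie 6 of them, within 10.82 Mb, and on chromosome 6 Cd27, Ltbr and Tnfrsf1a lie within 129.9 kb. Fas is alone on chromosome 19. Tnfrsf4 and Tnfrsf18 are adjacent and on the same strand, within 15.3 kb. The windows around the RefSeq starts of 4 genes on chromosome 4 are shown, 250 bases before to 50 after the start and 5′ to 3′ on the plus strand, because 2 of them (Tnfrsf4 and Tnfrsf25) held the largest differences in opposite directions while Tnfrsf18, next to Tnfrsf4, and Tnfrsf9, also on this chromosome, had no called difference. Where a gene had 2 windows, the one that held matches is shown. Capitals mark matches to the NF-kB consensus GGRRNNYYCC or to the AP-1 motif TGANTCA, on either strand. In these, R is A or G, Y is C or T and N is any base.
Tnfrsf25, chr4:152116093-152116392: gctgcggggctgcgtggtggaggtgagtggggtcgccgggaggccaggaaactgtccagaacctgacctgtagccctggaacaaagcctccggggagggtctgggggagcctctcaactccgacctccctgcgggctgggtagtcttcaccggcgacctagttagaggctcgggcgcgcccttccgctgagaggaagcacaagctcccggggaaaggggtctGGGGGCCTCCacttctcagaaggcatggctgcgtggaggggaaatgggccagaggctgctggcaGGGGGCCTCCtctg
Tnfrsf4, chr4:156013445-156013744: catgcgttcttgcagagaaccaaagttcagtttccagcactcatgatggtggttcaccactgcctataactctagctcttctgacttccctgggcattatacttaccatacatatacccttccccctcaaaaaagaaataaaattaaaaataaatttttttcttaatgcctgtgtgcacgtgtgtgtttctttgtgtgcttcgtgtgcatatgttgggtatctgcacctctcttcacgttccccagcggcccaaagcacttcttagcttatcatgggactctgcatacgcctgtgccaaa
Tnfrsf18, chr4:156026072-156026371: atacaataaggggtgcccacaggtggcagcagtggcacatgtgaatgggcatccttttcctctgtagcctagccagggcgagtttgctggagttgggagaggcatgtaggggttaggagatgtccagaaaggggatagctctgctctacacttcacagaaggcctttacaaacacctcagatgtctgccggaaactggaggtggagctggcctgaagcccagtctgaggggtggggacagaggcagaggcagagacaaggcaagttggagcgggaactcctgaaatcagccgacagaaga
Tnfrsf9, chr4:150927749-150928048: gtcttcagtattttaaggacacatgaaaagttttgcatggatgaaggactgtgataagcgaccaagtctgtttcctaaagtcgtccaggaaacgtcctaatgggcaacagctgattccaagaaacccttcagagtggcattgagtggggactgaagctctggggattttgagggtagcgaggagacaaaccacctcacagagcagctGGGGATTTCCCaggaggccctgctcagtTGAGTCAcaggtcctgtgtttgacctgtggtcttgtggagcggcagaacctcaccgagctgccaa
The Tnfrsf25 window, the downstream of 2 listed for that gene, held 2 NF-kB matches, at bases -28 to -19 and 36 to 45 counted from the start base as 0. The Tnfrsf9 window, also the second of 2, held an overlapping pair of NF-kB matches between bases -43 and -33 and an AP-1 match at -15 to -9. The windows of Tnfrsf4 and Tnfrsf18 held neither motif. Over all 12 windows of the 10 genes, 2 held an NF-kB match and 2 an AP-1 match (Tnfrsf9 and Fas). Of the 32851 promoter windows in the RefSeq table, 11.2% held an NF-kB match and 7.81% an AP-1 match. A match describes letters in a window and shows no binding. The shares of G and C were 43.7% in the Tnfrsf4 window, 55.3% in that of Tnfrsf18, 51.0% in that of Tnfrsf9 and 67.0% in that of Tnfrsf25, beside a median of 52.7% over all windows.

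Depth was 20905412 to 25956023 counts per ILC3 library and 15123715 to 20165672 per CD4 T library. At these depths 3 counts, the most that a count of 0 allows, came to 0.116 to 0.198 CPM (counts per 1000000 counts), for counting error only. This floor is on library size alone, whereas the levels given are TMM-scaled. Il7r and Cd4 went the way of the sort: Il7r, which encodes CD127, had 1264, 1025 and 1486 CPM in ILC3 against 211 and 227 CPM in CD4 T, and Cd4 had 6.27, 2.81 and 6.07 CPM in ILC3 against 142 and 89.9 CPM in CD4 T. Cd3e, a subunit of the CD3 complex that the ILC3 gate leaves out, had 65.2, 69.8 and 20.5 CPM in ILC3 against 54.8 and 200.3 CPM in CD4 T and was not called (adjusted p = 0.233 in edgeR). Ptprc, which encodes CD45, the marker of both gates, had 172, 203 and 213 CPM in ILC3 against 1168 and 957 CPM in CD4 T and was called lower in ILC3 (log2 fold change -2.44, adjusted p = 0.00568 in edgeR). All 8 ILC3 markers were called higher in ILC3. The libraries labelled CD4 T also held transcripts of other cells. CD8 T cell markers summed to 0 to 1.22 CPM in ILC3 and to 581 and 621 CPM in CD4 T. Of these, Cd8a had 245 and 189 CPM in CD4 T, above Cd4 in both libraries. Markers of plasmacytoid dendritic cells summed to 243 to 643 CPM in ILC3 and to 3799.9 and 3481 CPM in CD4 T. Most of this sum in ILC3 was Ly6d (86.9, 422 and 387 CPM) and Bst2 (136, 175 and 120.3 CPM). Siglech, of the same list, had 0.036, 0.064 and 0.233 CPM in ILC3 and 744 and 813 CPM in CD4 T. Of 5 NK cell and ILC1 markers, Gzma, which cytotoxic T cells also express, had 19.6, 27.1 and 18.1 CPM in ILC3 and 2062 and 3195 CPM in CD4 T, whereas Klrb1c had 60.4, 83.1 and 30.8 CPM in ILC3 and 0.0396 and 4.49 CPM in CD4 T, Prf1 was at most 4.0 CPM in any library, Eomes was at 0 in CD4 T and Klra8 was at 0 in every library. The 9 macrophage and dendritic cell markers summed to 171 to 202 CPM in ILC3 and to 1709 and 2276 CPM in CD4 T, with 8 called lower in ILC3 and 1, Zbtb46, called higher (36.3, 20.9 and 44.1 CPM in ILC3 against 1.5 and 1.24 CPM in CD4 T). Plasma cell markers summed to 18013 to 100595 CPM in ILC3 and to 34602 and 21266 CPM in CD4 T, nearly all of it Jchain, while Mzb1 had 146, 307 and 261 CPM in ILC3 and 349.8 and 454 CPM in CD4 T. T cell markers summed to 268 to 737 CPM in ILC3 and to 1012 and 2617 CPM in CD4 T replicates 1 and 2. Most of this sum in ILC3 was Cd3g (361, 469.6 and 160.3 CPM). Cd5, of the same list, had 0, 0.064 and 0 CPM in ILC3 and 54.8 and 78.0 CPM in CD4 T. Cd6 had 0 CPM in every ILC3 library and 36.6 and 56.8 CPM in CD4 T. All other genes of the list were detected in every ILC3 library. The part of other cells in the receptor differences was not tested.

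**Figure D1:**
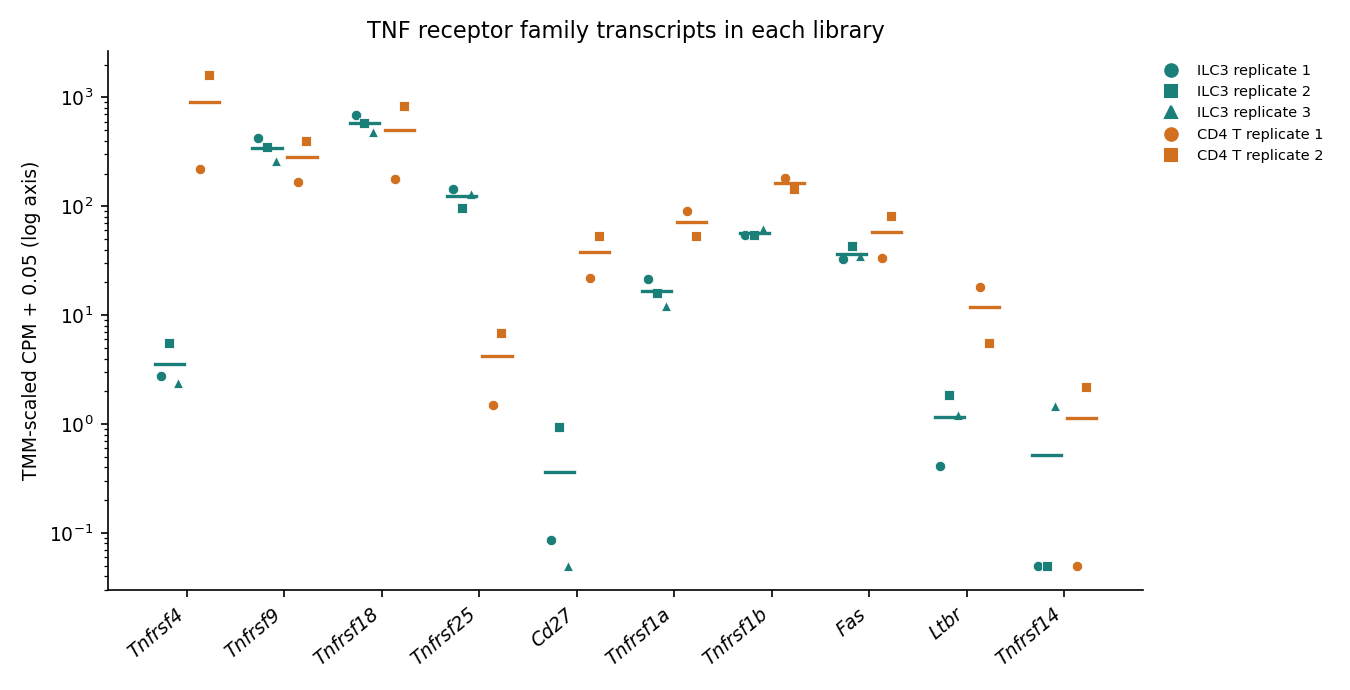
Level of each receptor in every library, as TMM-scaled CPM plus 0.05 on a log axis, with ILC3 in teal at the left of CD4 T in orange and a bar at each group's mean. The groups are apart for 6 genes, with Tnfrsf25 higher in ILC3 and Tnfrsf4, Tnfrsf1a, Tnfrsf1b, Ltbr and Cd27 lower.

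All 10 receptors passed the filter on low counts. Tnfrsf25 rose in ILC3 relative to CD4 T, Tnfrsf4, Tnfrsf1a, Tnfrsf1b and Cd27 fell, and the other 5 were not called. That is 1 of 10 higher, where 6.46% of the 12747 genes tested were called higher, and 4 of 10 lower, where 7.21% of all genes were called lower. Calls in either direction covered 13.7% of all genes. The receptors' median log2 fold change was -1.37 (ILC3 over CD4 T), beside -0.10 over all genes tested. The libraries of the groups did not overlap for 6 of the 10, which is close to the 55.0% of all genes with no overlap, and 5 of these 6 were lower in ILC3, where 29.6% of all genes were lower with no overlap and 25.5% higher. A gene was called at an adjusted p under 0.05 in the quasi-likelihood test of edgeR, and the adjusted p-values below are from that test with Benjamini-Hochberg adjustment over all genes.

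Among the costimulatory receptors, Tnfrsf4 (chr4:156013595-156016613, plus strand) had 2.70, 5.56 and 2.33 CPM in the ILC3 libraries, against 221 and 1598 CPM in the CD4 T libraries. It was low in every ILC3 library and high in both CD4 T libraries, although these differed 7.23-fold from each other. ILC3 averaged 3.53 ± 1.77 CPM over 3 libraries and CD4 T 909 ± 974 CPM over 2 libraries (± SD), a fitted level 258-fold lower in ILC3. On the log2 scale this was -8.01 (SE 0.977, adjusted p = 0.00653), and the call was made under all 15 alternatives. Without CD4 T replicate 2 the log2 fold change was -5.96, and without CD4 T replicate 1 it was -8.82.

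Cd27 (chr6:125232620-125237136, minus strand), a receptor of naive and memory T cells whose ligand is CD70, was nearly absent from ILC3. It had 0.036, 0.895 and 0 CPM in ILC3, against 22.1 and 53.5 CPM in CD4 T. Only 1, 14 and 0 reads lay behind the ILC3 values and 559 and 989 behind those of CD4 T. The log2 fold change was -7.01 (SE 1.44, adjusted p = 0.0272). Without ILC3 replicate 2, which held 14 of the ILC3 reads, it was -10.43, so the size of the Cd27 difference rests on few reads. The call was made under 11 of 15 alternatives and not without ILC3 replicate 1, ILC3 replicate 3 or either CD4 T library (adjusted p 0.0503 to 0.0842). The Cd27 gene overlaps Vamp1, on the opposite strand, over 4389 bases, with no exon base in common in the annotation used.

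Tnfrsf9 and Tnfrsf18 were abundant in the libraries of both groups. Tnfrsf18 (chr4:156026322-156028894, plus strand), whose product GITR lowers the threshold of T cell activation, had 694, 588 and 477 CPM in ILC3, against 179 and 836 CPM in CD4 T. The ILC3 values lay between the 2 CD4 T values. The log2 fold change was 0.21 (SE 0.61, adjusted p = 0.851). It turned to -0.51 without CD4 T replicate 1 (adjusted p = 0.331) and became a call of 1.72 without CD4 T replicate 2 (adjusted p = 0.0221), within a range of 0.0221 to 0.969 over the alternatives. The direction for Tnfrsf18 therefore rests on which CD4 T library is used. An antisense gene, Gm16008, covers 25.5% of the exon bases of Tnfrsf18, and its own level was 0 to 0.233 CPM in ILC3 and 0 and 0.27 CPM in CD4 T.

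Tnfrsf9 (chr4:150920155-150946104, plus strand), which encodes the activation-induced costimulator CD137, had 428, 351 and 261 CPM in ILC3, against 166 and 401 CPM in CD4 T. The groups overlapped, with the lowest value in CD4 T replicate 1 and the highest in ILC3 replicate 1. Its log2 fold change was 0.29 (SE 0.444, adjusted p = 0.703), and no alternative gave a call. It was -0.21 without CD4 T replicate 1 and -0.17 when libraries were scaled by their size alone. That scaling moved the median of all genes to -0.59, and relative to the median Tnfrsf9 was at 0.42 with it and at 0.39 with TMM, while Tnfrsf18 was at 0.34 and 0.31.

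Of the death domain receptors, Tnfrsf25 (chr4:152115528-152120119, plus strand) was the one receptor of the 10 called higher in ILC3. It encodes DR3, the receptor of TL1A (Tnfsf15), which costimulates T cells and acts on innate lymphoid cells. Its levels were 145, 96.3 and 131 CPM in ILC3, against 1.46 and 6.87 CPM in CD4 T. Every ILC3 library was far above both CD4 T libraries. ILC3 averaged 124 ± 25.1 CPM over 3 libraries and CD4 T 4.17 ± 3.82 CPM over 2 libraries (± SD), a fitted level 29.9-fold higher in ILC3. The difference on the log2 scale was 4.90 (SE 0.749, adjusted p = 0.0118), with a call under all 15 alternatives. It was 6.41 without CD4 T replicate 2 and 4.18 without CD4 T replicate 1.

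Tnfrsf1a (chr6:125349723-125362483, plus strand), which encodes TNFR1, the widely expressed receptor of TNF and soluble lymphotoxin alpha, fell in ILC3. It had 21.5, 16.1 and 12 CPM in ILC3, against 91.3 and 52.8 CPM in CD4 T, with no overlap. The fitted level was 4.35-fold lower in ILC3 and the log2 fold change -2.12 (SE 0.395, adjusted p = 0.0206). The call was made under 11 of 15 alternatives. Among those that ended it were leaving out ILC3 replicate 2, ILC3 replicate 3 or CD4 T replicate 1 (adjusted p 0.0618 to 0.0902 in edgeR).

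Fas (chr19:34290647-34327775, plus strand), the death receptor that removes activated lymphocytes, was present in the libraries of both groups. It had 32.9, 42.7 and 34.8 CPM in ILC3, against 33.4 and 82.2 CPM in CD4 T. CD4 T replicate 1 lay within the ILC3 range and replicate 2 above it. Its log2 fold change was -0.65 (SE 0.422, adjusted p = 0.33), -1.16 without CD4 T replicate 1 and 0.15 without CD4 T replicate 2, with no call under any alternative.

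Tnfrsf1b (chr4:145212368-145246870, minus strand), which encodes TNFR2, a TRAF-binding receptor of TNF that is prominent on T cells and regulatory T cells, fell in ILC3 with little spread. It had 54.7, 53.9 and 61.3 CPM in ILC3, against 183 and 145 CPM in CD4 T. Both CD4 T libraries were above all ILC3 libraries, and the fitted level was 2.90-fold lower in ILC3. The log2 fold change was -1.54 (SE 0.263, adjusted p = 0.0162). The call was made under 11 of 15 alternatives and was lost when any 1 of the 3 ILC3 libraries was left out (adjusted p 0.0574 to 0.0735 in edgeR).

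Ltbr (chr6:125306571-125313885, minus strand) was scarce in ILC3. It had 0.36, 1.79 and 1.17 CPM in ILC3, against 18 and 5.51 CPM in CD4 T, from 10, 28 and 20 reads and 455 and 102 reads. The groups did not overlap, but the log2 fold change of -3.42 (SE 0.972, adjusted p = 0.0607) missed the threshold in edgeR. It was called with library size alone (-4.03, adjusted p = 0.0318), with no filter on low counts (-3.39, adjusted p = 0.0269) and by the Wald test of DESeq2 (-3.42, adjusted p = 0.00412), within a range of 0.00412 to 0.365 over the 15 alternatives. Tnfrsf14 (chr4:154918487-154928620, minus strand), which encodes HVEM, the receptor of LIGHT that also binds BTLA and CD160, was detected in 1 library of each group, with 0, 0 and 24 reads in ILC3 and 0 and 40 reads in CD4 T. Its log2 fold change of -1.21 (SE 2.65, adjusted p = 0.796) took either sign across the alternatives, between -6.40 and 6.34, so no difference in Tnfrsf14 was detectable here.

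**Figure D2:**
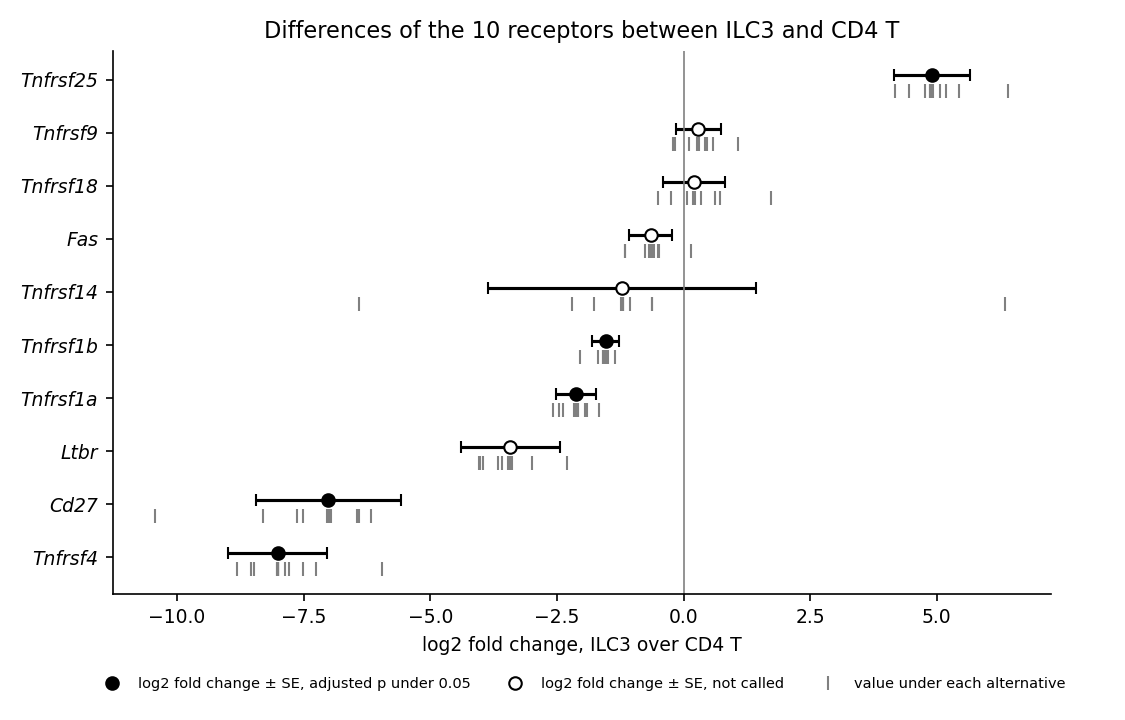
Log2 fold change of each receptor (ILC3 over CD4 T) with its standard error, filled where the adjusted p of edgeR is under 0.05 and open where it is not, and grey ticks at the values under the alternatives. Tnfrsf25 at 4.90 is the one filled point above 0, and Tnfrsf4 at -8.01 and Cd27 at -7.01 are the lowest.

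The 2 CD4 T libraries differed from each other by gene. Replicate 2 over replicate 1 was 7.23 for Tnfrsf4, 4.67 for Tnfrsf18, 4.69 for Tnfrsf25, 2.41 for Tnfrsf9, 2.46 for Fas and 2.42 for Cd27, as ratios of CPM. For Tnfrsf1b it was 0.795, for Tnfrsf1a 0.578 and for Ltbr 0.306. All 7 T cell markers and all 6 regulatory T cell markers were higher in replicate 2, to unequal degrees. Cd3g, a subunit of the T cell receptor complex, had 279 CPM in replicate 1 and 1308 CPM in replicate 2. Ctla4, a receptor of regulatory T cells, had 469 and 978 CPM, and the T cell marker Cd5 had 54.8 and 78.0 CPM. Of the CD4 and CD8 T cell markers, Cd4 (142 and 89.9 CPM) and Cd8a (245 and 189 CPM) were lower in replicate 2. Cd40lg (12.1 and 24.1 CPM) and Cd8b1 (336 and 432 CPM) were higher in replicate 2. Of the 9 macrophage and dendritic cell markers, 6 were higher in replicate 1, such as Csf1r (222 CPM in replicate 1 and 102 CPM in replicate 2), and 3 were higher in replicate 2, such as Lyz2 (657 CPM in replicate 1 and 1589.7 CPM in replicate 2). Lyz1, a Paneth cell gene on the epithelial list, had 11.5 CPM in replicate 1 and 1878 CPM in replicate 2. Foxp3, which defines regulatory T cells, had 0.036, 0 and 0 CPM in ILC3 and 62.9 and 65.6 CPM in CD4 T, nearly the same in both CD4 T libraries. The part of other cell types in these ratios was not tested.

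Compared per length, the make-up of the receptor set differed between the libraries of the groups. In ILC3 the mean level in CPM per kb of exon was 465 ± 86.0 for Tnfrsf18, 139 for Tnfrsf9, 65.2 for Tnfrsf25, 20.5 for Fas, 14.8 for Tnfrsf1b, 7.67 for Tnfrsf1a, 3.43 for Tnfrsf4 and 0.525 for Ltbr. Neighbours in this order were apart over the 3 libraries, whereas Ltbr overlapped with Tnfrsf14 below it, and Tnfrsf14 with Cd27. In CD4 T the mean in CPM per kb was 883 ± 945 for Tnfrsf4, 403 for Tnfrsf18, 114 for Tnfrsf9, 43.0 for Tnfrsf1b, 33.4 for Tnfrsf1a, 32.2 for Fas, 24.2 for Cd27, 5.58 for Ltbr and 2.19 for Tnfrsf25. There, the neighbours in that order were apart across libraries between Tnfrsf9 and Tnfrsf1b and between Cd27 and Ltbr, and overlapped elsewhere. Within each CD4 T library, Tnfrsf4, Tnfrsf18 and Tnfrsf9 held ranks 1, 2 and 3, and the order below them differed between the libraries. By group mean, Tnfrsf25 held rank 3 in ILC3 and rank 9 in CD4 T, and Tnfrsf4 rank 7 in ILC3 and rank 1 in CD4 T.

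The ratio of 2 receptors within a library does not depend on the scaling between libraries. Tnfrsf4 over its neighbour Tnfrsf18, per length, was 0.00476, 0.0116 and 0.00598 in ILC3, against 1.51 and 2.34 in CD4 T. Tnfrsf25 over Tnfrsf18 was 0.139, 0.108 and 0.181 in ILC3, against 0.00541 and 0.00544 in CD4 T. Both ratios separated the groups, with the CD4 T libraries close together for Tnfrsf25 despite the 4.69-fold difference in its level. Tnfrsf9 over Tnfrsf18 was 0.312, 0.302 and 0.277 in ILC3, against 0.471 and 0.243 in CD4 T, so this ratio overlapped between the groups. An exact permutation test of 3 against 2 libraries cannot go below p = 0.1, so no test was made on ratios or shares.

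As shares of the length-scaled counts of all 10 receptors, Tnfrsf18 took 64.8 ± 1.20% in ILC3 (SD, n = 3) and 25.9 ± 0.482% in CD4 T (SD, n = 2). Tnfrsf4 took 0.483 ± 0.242% in ILC3, and 38.6% and 61.4% in the CD4 T libraries, where the exact 95% binomial intervals of the counts were 37.9% to 39.3% and 61.0% to 61.8%. Tnfrsf25 took 9.22 ± 2.19% in ILC3 and 0.141 ± 0.0031% in CD4 T. Tnfrsf9 took 19.3 ± 1.48% in ILC3 and 9.21 ± 4.0% in CD4 T. Tnfrsf18 and Tnfrsf9 together made up 85.6%, 85.5% and 81.0% of the set in ILC3 and 37.6% and 32.7% in CD4 T. Shares of a set trade off, so the large Tnfrsf4 share in CD4 T lowers every other share there. Once Tnfrsf4 was added to the pair, the ILC3 libraries stood at 85.9%, 86.3% and 81.4%. The CD4 T libraries then stood at 76.2% for replicate 1 and 94.0% for replicate 2, so the groups overlapped. The summed level of the 10 receptors was 845, 710.5 and 597 CPM per kb in ILC3, against 556 and 2527 CPM per kb in CD4 T, which overlapped.

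**Figure D3:**
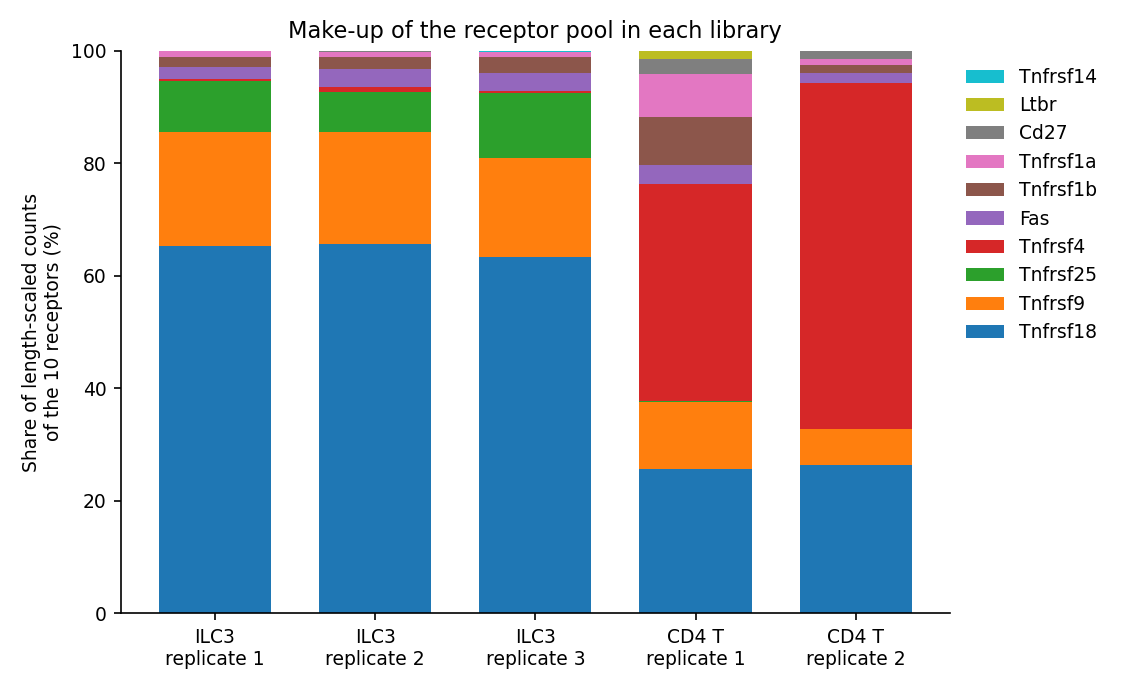
Share of each receptor in the length-scaled counts of the 10 receptors, in percent, as stacked bars for 3 ILC3 libraries at the left and 2 CD4 T libraries at the right. Tnfrsf18 takes 63.4% to 65.7% of the ILC3 bars, and Tnfrsf4 38.6% and 61.4% of the CD4 T bars.

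The ligands and binding partners of these receptors were set beside them, as a list of 12 genes of which 11 were tested. Tnfsf4, Lta and Ltb rose in ILC3, Btla fell and 7 were not called. Over all genes tested, 6.46% were called higher and 7.21% lower. The median log2 fold change of the list was 1.56, beside -0.10 over all genes. Tnfsf4 encodes the ligand of OX40. Per length it was at 13.6, 13.7 and 21.7 CPM per kb in ILC3, against 1.65 and 1.97 CPM per kb in CD4 T, while the receptor Tnfrsf4 was at 2.62, 5.4 and 2.27 CPM per kb in ILC3, against 214 and 1552 CPM per kb in CD4 T. In each ILC3 library the ligand was above the receptor, and in each CD4 T library below it. The log2 fold change of Tnfsf4 was 3.17 (SE 0.466, adjusted p = 0.0111 in edgeR).

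Of the lymphotoxin system, both ligand genes rose in ILC3. Ltb, the membrane-anchoring subunit, was at 682, 666 and 689 CPM per kb in ILC3, against 43.4 and 124 CPM per kb in CD4 T (log2 fold change 3.02, SE 0.516, adjusted p = 0.0162 in edgeR). Its receptor Ltbr was at 0.171 to 0.85 CPM per kb in ILC3, against 8.55 and 2.62 CPM per kb in CD4 T. Lta was at 48.7, 41.1 and 33.8 CPM per kb in ILC3, against 0 and 0.547 CPM per kb in CD4 T (log2 fold change 7.31, SE 1.26, adjusted p = 0.0163 in edgeR). Without CD4 T replicate 1 the log2 fold change of Lta was 6.23, and without CD4 T replicate 2 the remaining CD4 T library held no Lta read, so that the fitted 13.26 depends on the prior count and is no bound. Ltb was at 3.98 on the log2 scale without CD4 T replicate 2. Without ILC3 replicate 1 or 2, neither Lta nor Ltb was called (adjusted p 0.0501 to 0.0552 in edgeR). Tnf had 21.2, 21.4 and 19.3 CPM in ILC3, against 43.5 and 14.9 CPM in CD4 T, and was not called (adjusted p = 0.527 in edgeR), whereas its receptors Tnfrsf1a and Tnfrsf1b fell.

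The ligand of Tnfrsf25 was scarce in the libraries of both groups. Tnfsf15 was at 0.108, 0.478 and 0 CPM per kb in ILC3, against 0.0473 and 0.355 CPM per kb in CD4 T. Tnfsf18, the ligand of GITR, had 21 reads in ILC3 replicate 2 and none in the other 4 libraries, and was not tested. Cd70, the ligand of CD27, had 0, 0 and 2.92 CPM in ILC3, against 0.0791 and 1.51 CPM in CD4 T. Tnfsf9, the ligand of CD137, had 20.1, 12.1 and 20.4 CPM in ILC3, against 2.53 and 9.35 CPM in CD4 T. The groups did not overlap for Tnfsf9, but its log2 fold change of 1.56 was not called (SE 0.693, adjusted p = 0.168 in edgeR), except without CD4 T replicate 2 (2.80, adjusted p = 0.0429, range 0.0429 to 0.383). Fasl, the ligand of Fas, varied within both groups, with 90.3, 61.1 and 15.1 CPM in ILC3, against 13.5 and 85.4 CPM in CD4 T.

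The partners of HVEM went in different directions. Btla, an inhibitory receptor of lymphocytes, had 3.21, 3.90 and 7.12 CPM in ILC3, against 62.8 and 53.3 CPM in CD4 T. It fell in ILC3 with a log2 fold change of -3.62 (SE 0.451, adjusted p = 0.00696 in edgeR), called under all 15 alternatives. Cd160, a receptor of cytotoxic and innate lymphocytes, had 218, 281 and 186 CPM in ILC3, against 5.74 and 73.6 CPM in CD4 T. Its groups did not overlap, and its log2 fold change of 2.53 was not called in edgeR (SE 0.968, adjusted p = 0.123), although it was in 4 of 15 alternatives (range 0.00433 to 0.226). Tnfsf14, which encodes LIGHT, had 2.70, 14.9 and 0.817 CPM in ILC3, against 0.0396 and 1.68 CPM in CD4 T, and was not called (adjusted p = 0.327 in edgeR).

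**Figure D4:**
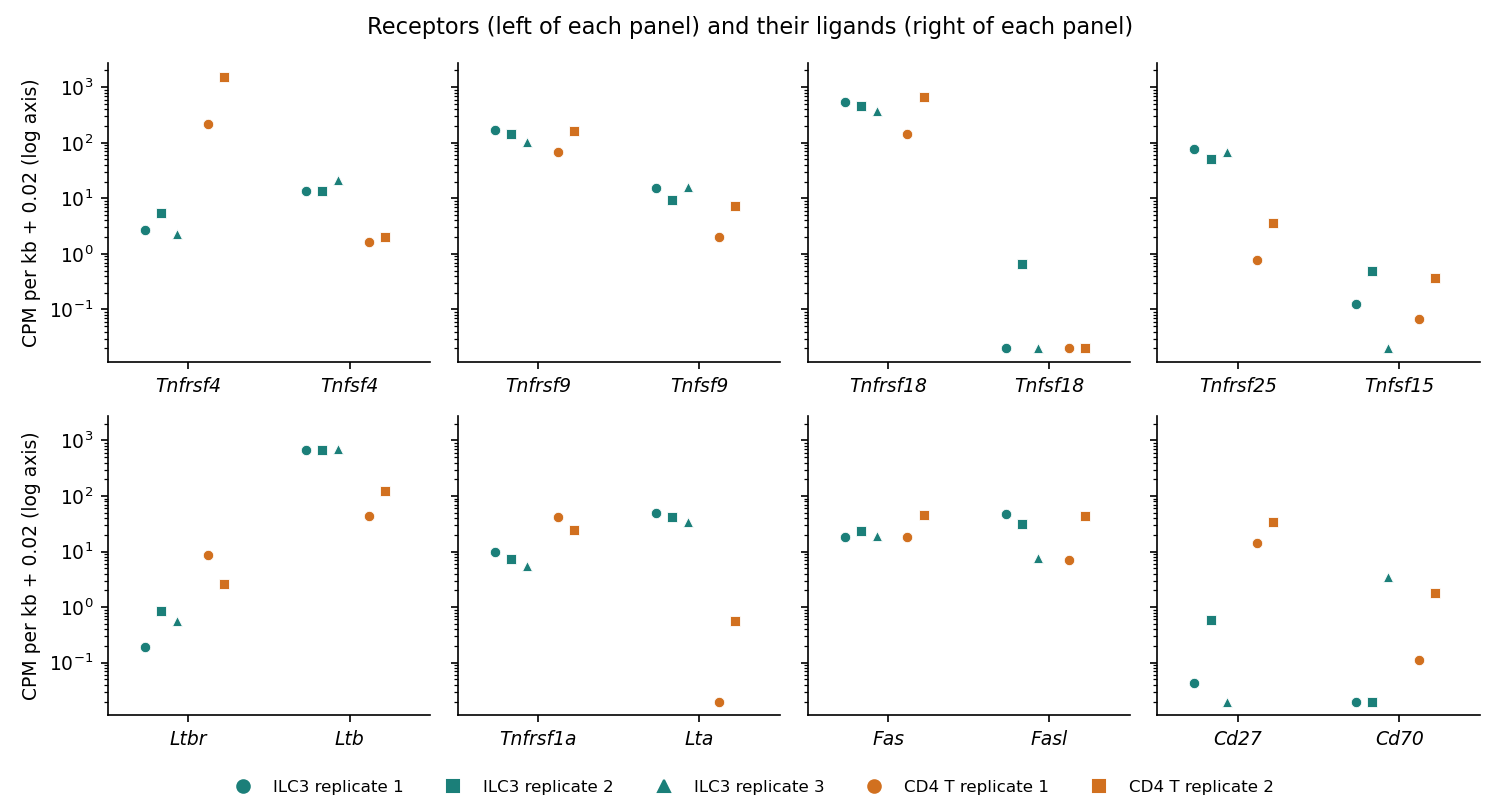
Level of receptors and of their ligands or partners in each library, in CPM per kb of exon plus 0.02 on a log axis, with ILC3 at the left of CD4 T in each of 8 pairs. Tnfrsf4 and Ltbr (not called) are lower in ILC3 and their ligands Tnfsf4 and Ltb are higher. Tnfrsf25 is higher in ILC3 and its ligand Tnfsf15 is near the floor in the libraries of both groups.

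Among the other receptors and the signalling genes, 6 of 52 tested genes were called, or 11.5%, near the 13.7% of all genes. Of 18 other receptors of the family, 13 were tested and 1 fell, Cd40, the receptor of CD40 ligand on antigen-presenting cells. It had 11.2, 15.6 and 23.5 CPM in ILC3, against 69.9 and 52.1 CPM in CD4 T (log2 fold change -1.86, SE 0.399, adjusted p = 0.0308 in edgeR). Of the 9 macrophage and dendritic cell markers, 8 were also called lower in ILC3, whereas none of 4 tested B cell markers was called. The 5 B cell markers summed to 135 to 279 CPM in ILC3, against 81.7 and 136 CPM in CD4 T. The part of these cells in the Cd40 difference was not tested. Of 6 TRAF adaptors, 1 fell: Traf3, which restrains noncanonical NF-kB signalling, had 8.79, 9.72 and 6.48 CPM in ILC3, against 91.6 and 40.2 CPM in CD4 T (log2 fold change -2.98, SE 0.443, adjusted p = 0.0112 in edgeR), and its log2 fold change was -2.27 without CD4 T replicate 1. None of 9 death domain adaptors, caspases and necroptosis genes and none of 6 cIAP, NIK and noncanonical NF-kB genes was called. The most abundant of each, Casp8 with 135, 109 and 97.7 CPM in ILC3 against 33.8 and 72.7 CPM in CD4 T (log2 fold change 1.10, adjusted p = 0.11 in edgeR) and Birc3 with 334, 249 and 324 CPM in ILC3 against 198 and 157 CPM in CD4 T (log2 fold change 0.77, adjusted p = 0.126 in edgeR), did not overlap between the groups. Without CD4 T replicate 2, Casp8 was called (log2 fold change 1.77, adjusted p = 0.0228 in edgeR, range 0.0228 to 0.394).

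Of 10 genes of the linear ubiquitin and IKK complexes and canonical NF-kB, 1 fell. This was Ikbkb, a kinase of IkB, with 41.2, 34.6 and 27.0 CPM in ILC3, against 92.6 and 74.5 CPM in CD4 T (log2 fold change -1.29, SE 0.306, adjusted p = 0.0408 in edgeR). Of 8 inhibitors of the pathway, counted with the sheddase of TNF receptors, 2 rose and 1 fell. The IkB genes Nfkbia and Nfkbie, which are themselves induced by NF-kB, rose by a log2 fold change of 1.43 and 1.17 (SE 0.288 and 0.27, adjusted p = 0.0261 and 0.038 in edgeR). Nfkbia had 1579.8, 1444 and 1456 CPM in ILC3, against 516 and 592 CPM in CD4 T, and Nfkbie 192, 155 and 171 CPM in ILC3, against 80.2 and 73.5 CPM in CD4 T. Adam17, which encodes the protease that sheds TNF and its receptors, had 8.14, 22.3 and 21.2 CPM in ILC3, against 96.2 and 85.0 CPM in CD4 T (log2 fold change -2.40, SE 0.466, adjusted p = 0.0234 in edgeR). Leaving out ILC3 replicate 2 ended the calls of Cd40, Ikbkb, Nfkbia, Nfkbie and Adam17 (adjusted p 0.0593 to 0.11 in edgeR), and leaving out CD4 T replicate 1 those of Cd40, Ikbkb, Nfkbie and Adam17 (0.0669 to 0.131). Without ILC3 replicate 1 Cd40, Ikbkb, Nfkbia and Nfkbie were not called (0.0812 to 0.105), and without ILC3 replicate 3 Ikbkb, Nfkbia, Nfkbie and Adam17 were not (0.0558 to 0.101). With library size alone, the adjusted p of edgeR was 0.132 for Nfkbia and 0.256 for Nfkbie.

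For each receptor, the gene with the most similar pattern was found among 4926 tested genes with a mean of at least 20 CPM, as the smallest root mean square difference of centred log2 CPM over the 5 libraries. The closest were Tmem199 to Tnfrsf9 at 0.0549, Gimap3 to Tnfrsf18 at 0.0767, Eif3f to Tnfrsf1b at 0.0788 and Coro1a to Tnfrsf1a at 0.0831. Ppil1 lay at 0.108 from Fas and Nmrk1 at 0.129 from Tnfrsf25. For Ltbr the nearest was Hspa1a, at 0.199. The steepest patterns had no near match: the nearest genes were immunoglobulin kappa segments for Tnfrsf4 (0.509) and Cd27 (0.623). Tnfrsf14, with 0, 0 and 24 reads in ILC3 and 0 and 40 reads in CD4 T, had none either (Tigit at 1.15). With 5 libraries and 4926 genes, such likeness is a description of these libraries.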

How the data were processed

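Whole-number counts per gene, with no normalization, were deposited by the authors for sorted ILC3 (3 libraries) and CD4 T cells (2 libraries). Per the labels' protocols, a low-input SMARTer kit amplified the cDNA, and the submitters' processing notes name STAR 2.3.0, CASAVA 1.8.2 and mm10. Which tool, annotation and strand setting made the counts is not stated in the labels or processing notes, and overlapping genes on opposite strands may not be separable. Amplified reads lack molecular identifiers, so intervals and floors (3 counts) cover counting error only.

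Symbols came from RefSeq (GRCm38.p6) for 25275 of 27179 gene identifiers, and no row lacked an identifier. Exon lengths came from the basic set of GENCODE for GRCm38, and promoter sequences from RefSeq (GRCm38.p6). Genes were filtered with filterByExpr, scaled with TMM and tested with the quasi-likelihood F test of edgeR 4.0.16 in R 4.3.3, without covariates and with 3 residual degrees of freedom. Benjamini-Hochberg adjustment ran over 12747 genes, and a gene is called under 0.05. Standard errors are the size of the log2 fold change over the square root of F. Levels are TMM-scaled CPM, or CPM per kb of exon between genes. Shares, intervals and figures were made in Python 3.11.15 with pandas 2.3.3, scipy 1.17.1 and matplotlib 3.10.9.

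The receptors, the gene lists and the alternatives were chosen with earlier results of these data known. The genes named are the 10 receptors, their 12 ligands and partners and the genes of the sort, up to 3 called genes (or the 1 most abundant where none was called) of each other list of the family, marker genes, and for each receptor the gene of most similar pattern. Cd3g, Csf1r and some other markers beyond this rule were chosen after their values were seen; the result of 1 marker gene is not reported here. On simulated counts for 12747 genes of this comparison with 200 genes changed, 50 at each size, a log2 change of 1, 2, 3 and 4 was recovered in 0%, 4%, 10% and 50%, and 4 unchanged genes were called. In the data 1743 genes were called. With fewer changed genes the Benjamini-Hochberg adjustment is stricter, so these shares hold for the simulated setting only. The 15 alternatives took library size alone, upper quartile factors or DESeq2 size factors for scaling, with 495 antigen receptor genes left out, no filter, 1 CPM in at least 2 libraries, a robust fit, the DESeq2 1.42.0 Wald test, limma-voom (limma 3.58.1), each library left out in turn, and a replicate block. Where a CD4 T library was left out, the remaining one is assumed to vary like the ILC3 libraries. Samples with the same replicate number are not stated to share a mouse.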

Additional observations from a re-analysis of the deposited data

How the results depend on the processing

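Of 149 values for the 10 receptors under the 15 alternatives, 127 kept their direction and their side of the threshold, 12 lost a call, 4 gained one and 6 changed sign. Of 343 values for 23 other named genes, 290 were kept, 33 lost a call, 8 gained one and 12 changed sign. The cause of each change was not tested.

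The calls over all genes were 824 higher in ILC3 and 919 lower. They were 384 and 1491 with library size alone, 1914 and 1858 with the DESeq2 Wald test and 1317 and 1402 with limma-voom, and 1250 genes were higher with no filter. The share of higher calls was 47.3%, and 20.5% with library size alone, which moved the median log2 fold change of all genes to -0.59. Leaving out 1 library gave 269 to 1712 higher calls and 306 to 960 lower calls. The share of higher calls was 62.1% without CD4 T replicate 1 and 64.1% without CD4 T replicate 2. For the 10 receptors, leaving out 1 library gave 1 to 2 higher calls and 1 to 3 lower calls. The 7 other lists of the family had 5 genes called in each direction, with 1 to 9 higher and 2 to 6 lower when 1 library was left out, 3 higher with library size alone, 9 higher and 8 lower with the Wald test, and 8 lower with limma-voom.

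With raw counts in place of length-scaled counts, Tnfrsf18 took 49.9% of the receptor set in ILC3 and 22.9% in CD4 T, Tnfrsf9 29.3% in ILC3 and 15.4% in CD4 T, and Tnfrsf25 0.188% in CD4 T. Leaving out 1 library, Tnfrsf4 took 0.345% to 0.57% in ILC3 and 38.6% to 61.4% in CD4 T, Tnfrsf9 18.7% to 20.1% in ILC3 and 6.39% to 12% in CD4 T, and Tnfrsf25 8.08% to 10.3% in ILC3 and 0.138% to 0.143% in CD4 T.

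Signs turned in the log2 fold change of genes that were not called. With library size alone these were Tnfrsf9 (-0.17), Tnfrsf18 (-0.25), Fasl (-0.23) and Cd70 (-0.29), and with limma-voom Cd70 (-1.72). When 1 library was left out, the log2 fold change ranged over -0.21 to 1.07 for Tnfrsf9, -0.51 to 1.72 for Tnfrsf18, -2.20 to 6.34 for Tnfrsf14, -1.16 to 0.15 for Fas, -0.86 to 2.01 for Tnfsf15, -1.06 to 0.48 for Tnf, -0.61 to 2.05 for Fasl and -0.63 to 3.53 for Cd70.

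The replicate numbers gave no sign of pairing the samples: deviations of same-numbered samples correlated at -0.0235 and -0.0338. A replicate block, which left 1 residual degree of freedom, gave 215 higher and 305 lower calls, 1 higher and 2 lower calls among the 10 receptors (Tnfrsf25, Tnfrsf4 and Cd27, while Tnfrsf1a had an adjusted p of 0.08 and Tnfrsf1b of 0.111), and 1 call in each direction in the other lists. With the block, Tnfsf15 was at 0.78 and Cd70 at -6.30.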
